A study of Mus musculus with 47 samples.

Results

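The genes described here are *Fas*, *Casp8*, *Casp9*, *Apaf1*, *Birc2*, *Birc3* and *Gsdme*, which encode proteins that start, carry out or restrain programmed cell death. They were chosen by name, and the choice drew on measured values: low *Gsdme* and raised *Fas* and *Birc3* in tumours labelled TLX1 positive. The 7 genes are read by 11 of the 22690 probe sets on the array, and they are 7 of 12393 genes with a probe set of their own. All 7 genes and 9 of the 11 probe sets passed the filter on dim signals (above the median of the array on 2 arrays or more), which left 8814 genes for testing. The probe sets 1426125_a_at for *Casp9* and 1425223_at for *Birc3* did not.

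RNA of T-cell lymphoblasts from 47 mouse T-cell lymphoblastic tumours was read on Affymetrix arrays, with 1 signal in arbitrary units per probe set. The titles give 14 genetic backgrounds. TLX1 transgenic tumours numbered 6 and are the only ones labelled TLX1 positive, so TLX1 status and that background cannot be told apart. *Cdkn2a* knockout tumours raised with retroviral insertional mutagenesis numbered 9. There were 3 tumours each of beta-catenin transgenic, Ikaros Plastic, LMO1 transgenic, p53 knockout and ThPOK transgenic backgrounds. The groups titled Nup98HoxD13 transgenic, olig1-LMO1 double transgenic and Tal1-LMO2 double transgenic also held 3 each. Pokemon transgenic, Tal1 transgenic, rag E2A knockout and E2A knockout held 2 each. No normal thymus was used here. The labels used here do not state strain, age or the promoters behind the transgenes, nor whether tumours came from separate mice. A p-value therefore measures the spread between these samples, which may in part be technical.

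Fas is a death receptor on the cell surface. When its ligand binds, it gathers an adaptor and caspase-8, the initiator protease of the receptor route. In the mitochondrial route, released cytochrome c drives Apaf1 to assemble the apoptosome, which activates caspase-9. Both routes lead to executioner caspases, which can cut gasdermin E, encoded by *Gsdme*, and free a fragment that forms pores in the plasma membrane. The inhibitor of apoptosis proteins cIAP1 and cIAP2, encoded by *Birc2* and *Birc3*, are ubiquitin ligases that hold back signalling from death receptors to caspase-8 and keep the alternative NF-kB route low. *Birc3* is itself a well-known NF-kB target. In the thymus these genes belong to the machinery that removes developing T cells.

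Several arrays stand apart and touch the results. The mean log2 ratio of 3' to 5' signal of the *Gapdh* and *Actb* control probe sets, a sign of RNA quality, lay between 1.92 and 2.76 in TLX1 tumours 2, 5 and 6. It lay between 0.37 and 0.90 in TLX1 tumours 1, 3 and 4 and between -0.17 and 0.96 in the 41 TLX1 negative tumours. Among TLX1 negative tumours it was highest in p53 knockout tumours 1 (0.96) and 2 (0.65) and Tal1 transgenic tumour 1 (0.75). Next came LMO1 transgenic tumour 2 (0.40), while p53 knockout tumour 3 had 0.07 and Tal1 transgenic tumour 2 had 0.13. Over the 41 negative tumours its Pearson r with the genes ran from -0.35 (*Gsdme*, Spearman -0.06) to 0.46 (*Casp9*, Spearman 0.52). Calls that ended after adjustment for this ratio are given below. The summed signal of T cell markers was 2849 in p53 knockout tumour 2, with 3 of 14 markers above the array median. It was 29285 and 29374 in the other two p53 knockout tumours. The summed endothelial markers of that tumour came to 18629, against 886 and 944 in the other two. *Lmo1* signal was 522 to 2344 in the LMO1 transgenic tumours, 586 to 2526 in the tumours labelled Nup98HoxD13 and 11.1 to 34.3 in those labelled olig1-LMO1. The other 38 tumours lay between 1.52 and 249, so the labels Nup98HoxD13 and olig1-LMO1 go against the *Lmo1* signal. The summed markers of several other cell types had higher medians in TLX1 tumours, in ranges that overlapped those of the others. Myeloid marker sums ran from 3938 to 86900 in TLX1 tumours, with the highest in tumour 2, and from 1385 to 13858 in the others. B cell markers had a median of 7576 (4113 to 26135) in TLX1 tumours and 2406 (227 to 11313) in the others. Stromal and thymic epithelial markers had 9054 (4093 to 11276) and 4746 (557 to 27350), and dendritic cell markers 3580 (2198 to 10322) and 1703 (552 to 11688). The part of these cells in the TLX1 differences was not tested. T cell marker sums were 22942 to 30339 in TLX1 tumours, with 11 to 14 of 14 markers above the array median. In bulk RNA, fewer cells of a type and less RNA per cell cannot be told apart.

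*Birc2* and *Birc3* lie next to each other on chromosome 9 with 0 protein-coding genes between them, and both were called higher in LMO1 transgenic tumours in the comparison of backgrounds. Their promoters are shown for that reason, from RefSeq on GRCm38.p6. Each runs 5′ to 3′ on the minus strand and ends at the annotated start of the gene, with CG dinucleotides in capitals.
Birc2 (chr9:7837132-7837307): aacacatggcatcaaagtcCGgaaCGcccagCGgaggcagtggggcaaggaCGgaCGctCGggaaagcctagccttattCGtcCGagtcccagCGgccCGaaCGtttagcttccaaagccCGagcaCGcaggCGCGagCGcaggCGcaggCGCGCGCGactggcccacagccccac
Birc3 (chr9:7873206-7873420): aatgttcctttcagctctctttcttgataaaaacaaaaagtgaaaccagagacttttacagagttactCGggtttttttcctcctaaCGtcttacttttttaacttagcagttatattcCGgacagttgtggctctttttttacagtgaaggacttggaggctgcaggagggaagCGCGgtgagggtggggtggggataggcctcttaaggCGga
The *Birc2* stretch of 176 bases holds 21 CG dinucleotides, and the *Birc3* stretch of 215 bases holds 6. Over the full 250 bases before the start site, the *Birc3* window holds 6 CG, the median of 32851 promoter windows. *Apaf1* holds 42, more than 99.1% of windows held, *Casp9* 25, *Gsdme* 15, *Fas* 11 and *Casp8* 5. The NF-kB consensus, searched on both strands, was in 0 of the 8 windows of the 7 genes and in 7.25% of all windows. A missing match says only that these letters are not in this window.

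*Gsdme* signal was low in TLX1 transgenic tumours on probe set 1421534_at. The lowest TLX1 tumour had 32.8 units, the median was 50.1 and the highest, tumour 1, had 207. The 41 TLX1 negative tumours ran from 101 to 1552 with a median of 561. So 5 of the 6 TLX1 tumours lay below every TLX1 negative tumour, and 3 of the 41 lay below the highest TLX1 tumour. On the log2 scale after adding 15.9 units, the TLX1 mean was 2.83 ± 0.36 (SE) below the negative mean, a 7.13-fold difference. This was the difference ranked 3 from the bottom among 8814 genes. *Gsdme* was chosen for this difference, so it is a description and no test applies. In all, 0.0113% of tested genes had all 6 TLX1 tumours below all 41 others. The difference was -2.65 with TLX1 tumours 1, 3 and 4 alone and -3.02 with tumours 2, 5 and 6 alone. Adjusted for the 3'/5' ratio it was -2.09 ± 0.56. The ratios of TLX1 tumours 2, 5 and 6 lay above that of every TLX1 negative tumour. Here and for the other genes, the adjusted value therefore carries a slope beyond the range of the negative tumours. Only 2 of the 6 TLX1 tumours had a signal above the array median. The size of the *Gsdme* difference thus depends on the value added before the logarithm. The difference was -3.14 with 1 unit added and -2.17 with 72.2.

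**Figure D1:**
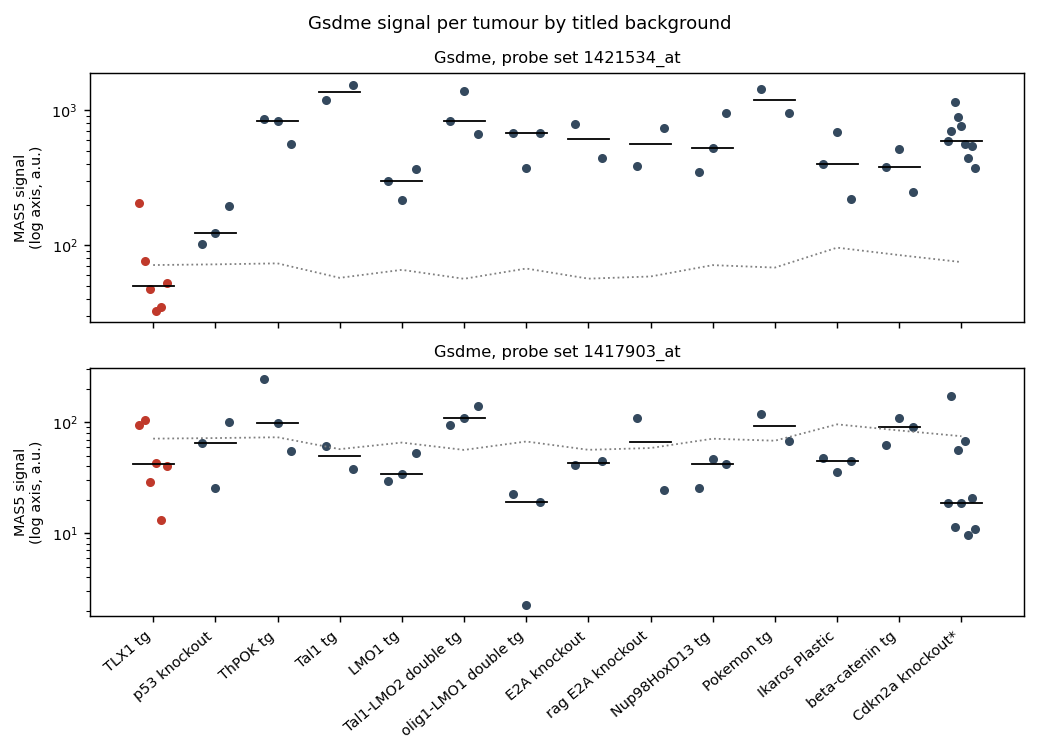
*Gsdme* signal on probe sets 1421534_at and 1417903_at (log axis, arbitrary units) by titled background; each point is 1 tumour, black bars are group medians, dotted grey lines are the median of the array medians, and the asterisk marks retroviral insertional mutagenesis. On 1421534_at, TLX1 tumours (32.8 to 207) and p53 knockout tumours (101 to 196) sit lowest; on 1417903_at no background stands apart in the same way.

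The other *Gsdme* probe set does not show the TLX1 difference. On 1417903_at the TLX1 tumours had 13.2 to 104 units, with a median of 42.0, and the negative tumours 2.25 to 246, with a median of 46.4. The difference was -0.05 on the log2 scale. That probe set rose above the array median in 15 of 47 arrays, against 43 for 1421534_at. Over the 47 tumours the log2 values of the 2 probe sets correlated weakly (Pearson r 0.16), so the low *Gsdme* of TLX1 tumours rests on 1 of 2 probe sets.

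Among the TLX1 negative backgrounds *Gsdme* differed. The stated choice of genes drew on TLX1 status, but earlier results of these data were known when it was made. The moderated F test of limma over 13 backgrounds gave an adjusted p of 2.61e-05. That test called 61.6% of all tested genes, so a call alone is common. The p53 knockout tumours had 101, 124 and 196 units, the lowest 3 of the 41, below the next tumour at 215. Against the mean of the other 12 backgrounds the p53 knockout mean fell by 2.06 ± 0.30 on the log2 scale (4.16-fold, limma adjusted p 1.76e-05), in a comparison that called 11.3% of genes lower. It was -2.001 ± 0.365 (limma adjusted p 0.000755) without tumour 2. Tal1 transgenic tumours had 1186 and 1552 units, and their mean was 1.39 ± 0.36 higher (limma adjusted p 0.0170, with 3.34% of genes called higher). That call was lost when either Tal1 tumour was left out (limma adjusted p 0.134 and 0.206). Like the TLX1 difference, both calls rest on 1421534_at. On 1417903_at p53 knockout tumours differed by 0.09 ± 0.41 (limma adjusted p 0.891) and Tal1 transgenic tumours by -0.10 ± 0.49 (limma adjusted p 0.932). That probe set also passed the F test in the fit of all kept probe sets (limma F adjusted p 0.0194, where 64.4% were called). Its order was another one, from 0.98 ± 0.41 in Tal1-LMO2 double transgenic to -1.35 ± 0.41 in olig1-LMO1 tumours, and no single background was called.

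Pokemon transgenic tumours, with 959 and 1433, came next in level to the Tal1 transgenic tumours. LMO1 transgenic tumours had 215, 301 and 368 units, and stood just above the p53 knockout tumours. In the order of the 14 background means, TLX1 came last, and 12 of the 13 neighbouring pairs overlapped in range.

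*Fas*, the death receptor, was read by probe set 1460251_at. TLX1 tumours ran from 101 to 269 units with a median of 149, all above the array median. The 41 others ran from 7.90 to 291 with a median of 74.9. Every TLX1 tumour lay above the median of the others, yet the 2 ranges overlapped, and TLX1 came first of the 14 backgrounds. The TLX1 mean was 1.01 ± 0.35 above the negative mean on the log2 scale, 0.80 with tumours 1, 3 and 4 and 1.21 with 2, 5 and 6. Among the TLX1 tumours the highest *Fas* signal was in tumour 2, the tumour with the highest myeloid sum, and without it the difference was 0.86. *Fas* ranked 380 of 8814 genes by this difference. It describes the choice and was not tested. All 6 tumours lay above all 41 others in 0.0454% of genes, and *Fas* was not among them.

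Among TLX1 negative tumours *Fas* differed by background (limma F adjusted p 0.00251). *Cdkn2a* knockout tumours, from 41.4 to 207 with a median of 128, were higher by 0.86 ± 0.23 (limma adjusted p 0.00532; 16.1% of genes were called higher there). The 2 rag E2A knockout tumours had 75.3 and 252 units, and the 2 E2A knockout tumours 7.90 and 32.8. Neither background passed the test (adjusted p 0.203 and 0.0878). p53 knockout tumours, at 15.7, 20.1 and 79.1, differed from the rest by -0.77 ± 0.37 (adjusted p 0.119). All 13 neighbouring pairs in the order of background means overlapped in range.

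**Figure D2:**
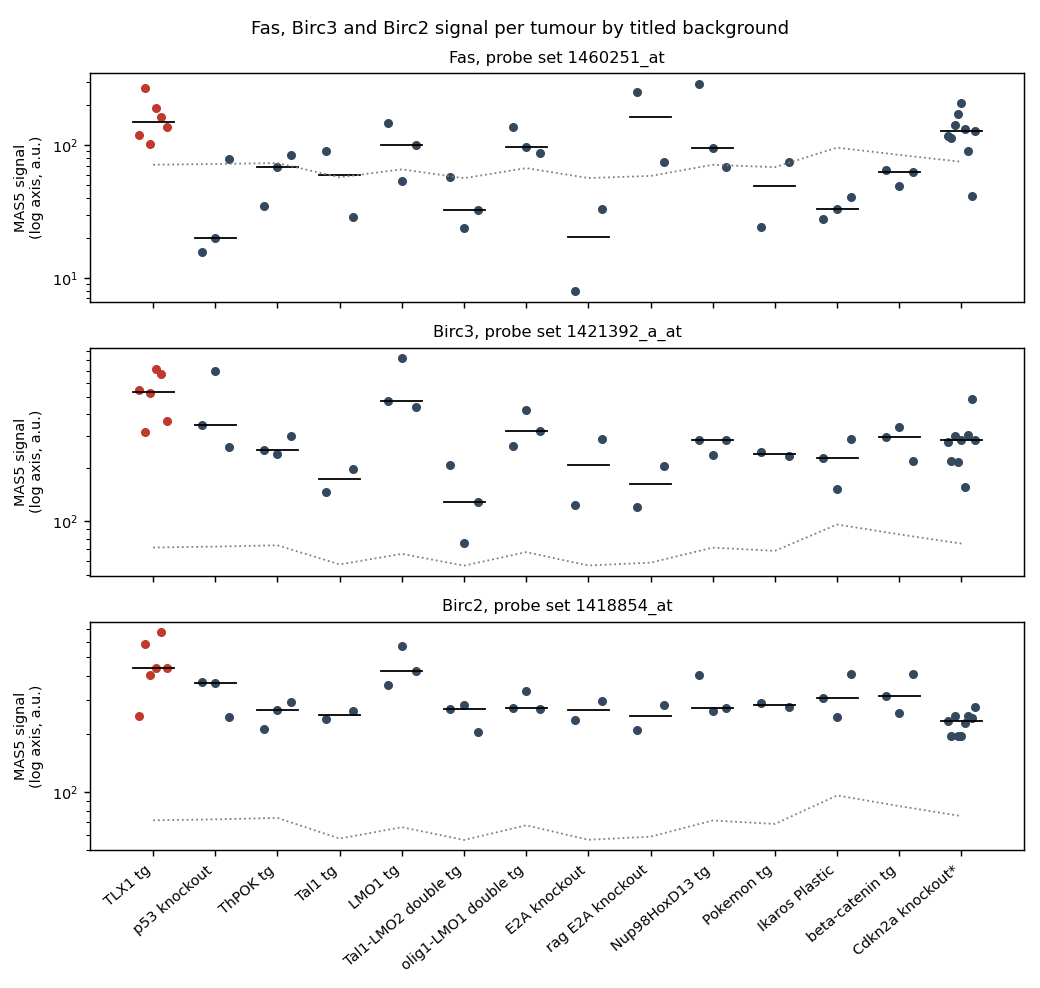
*Fas* (1460251_at), *Birc3* (1421392_a_at) and *Birc2* (1418854_at) signal (log axis, arbitrary units) by titled background; each point is 1 tumour, black bars are group medians, dotted grey lines are the median of the array medians, and the asterisk marks retroviral insertional mutagenesis. TLX1 tumours have *Fas* between 101 and 269 and *Birc3* between 318 and 715, and LMO1 transgenic tumours have *Birc3* between 436 and 825.

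*Casp8*, the initiator caspase of the receptor route, was above the array median in all 47 arrays. TLX1 tumours ran from 352 to 787 units with a median of 438, within the 116 to 1905 of the other tumours (median 618). The TLX1 difference was -0.40 ± 0.27. It was -0.17 with tumours 1, 3 and 4, -0.64 with 2, 5 and 6, and 0.10 after adjustment for the 3'/5' ratio. *Casp8* differed among TLX1 negative backgrounds (limma F adjusted p 0.000395).

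The 2 Tal1 transgenic tumours had 116 and 395 units. Their mean was 1.60 ± 0.32 lower (limma adjusted p 0.00155; 2.31% of genes were called lower), but without the first of them the difference was -0.78 (limma adjusted p 0.433). *Cdkn2a* knockout tumours, 372 to 688 with a median of 398, were lower by 0.49 ± 0.16 (limma adjusted p 0.0239; 13.8% of genes were called lower). Without *Cdkn2a* knockout tumour 1 or 5 the adjusted p was 0.0520 and 0.0506. The tumours labelled Nup98HoxD13 (803, 950 and 1905) and Pokemon transgenic (989 and 1338) had the highest levels. Neither passed the test (limma adjusted p 0.0505 and 0.178), but in the fit of all kept probe sets the tumours labelled Nup98HoxD13 were called higher, by 0.89 ± 0.26 (limma adjusted p 0.0426).

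*Apaf1*, the scaffold of the apoptosome, was read by 2 probe sets with opposite patterns. On 1452870_at, above the array median in all 47 arrays, TLX1 tumours ran from 165 to 471 units with a median of 283. The others ran from 117 to 416 with a median of 195. The TLX1 difference was 0.46 ± 0.17, and 0.05 ± 0.26 after adjustment for the 3'/5' ratio. On 1450223_at TLX1 tumours ran from 6.76 to 56.1 units, and the others from 28.4 to 208. There the difference was -1.21, and 2 TLX1 tumours lay below every other tumour. The log2 values of the 2 probe sets had a Pearson r of -0.22 over 47 tumours.

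*Apaf1* on 1452870_at did not pass the F test among TLX1 negative backgrounds (limma adjusted p 0.0916). *Cdkn2a* knockout tumours, from 127 to 185 with a median of 158, were lower by 0.42 ± 0.12 on it (limma adjusted p 0.0105). In the fit of all kept probe sets, 1450223_at passed (limma F adjusted p 3.72e-06, where 64.4% of probe sets were called). On that probe set *Cdkn2a* knockout tumours were higher by 0.45 ± 0.12 (limma adjusted p 0.00418), the opposite direction. Beta-catenin transgenic tumours, at 187, 193 and 208, were higher by 1.13 ± 0.19 (limma adjusted p 7.30e-05), and Ikaros Plastic tumours by 0.75 ± 0.19. Tal1 transgenic tumours were lower by 1.10 ± 0.23 and p53 knockout tumours by 0.79 ± 0.19. In that fit the share of all probe sets called higher was 19.1% for *Cdkn2a* knockout, 14.6% for beta-catenin and 17.2% for Ikaros Plastic tumours. The share called lower was 4.29% for Tal1 and 14.1% for p53 knockout tumours. *Apaf1* directions by background therefore hold for a named probe set only.

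*Casp9*, the caspase that the apoptosome activates, was dim. Probe set 1437537_at exceeded the array median in 13 of 47 arrays. TLX1 tumours had 56.5 to 101 units with a median of 93.3, against 5.08 to 123 and a median of 48.3 in the others. The TLX1 difference was 0.77 ± 0.23, and 0.38 ± 0.36 after adjustment for the 3'/5' ratio. On 1426125_a_at the difference was 0.71, with 29.0 to 64.8 units in TLX1 tumours and 1.20 to 83.0 in the others.

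By the F test *Casp9* differed among the negative backgrounds (limma adjusted p 0.0195). p53 knockout tumours, at 69.8, 120 and 123, were higher by 0.93 ± 0.27 (limma adjusted p 0.0118; 14.5% of genes were called higher). The adjusted p was 0.0673 without tumour 1 and 0.103 without tumour 2. *Cdkn2a* knockout tumours, from 5.08 to 50.1 with a median of 27.1, were lower by 0.72 ± 0.17 (limma adjusted p 0.00189). On 1426125_a_at, which did not pass the filter, *Cdkn2a* knockout tumours had 25.9 to 61.6 units and p53 knockout tumours 4.97 to 26.1, the reverse order. The log2 values of the 2 probe sets had a Pearson r of -0.02 over 47 tumours.

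**Figure D3:**
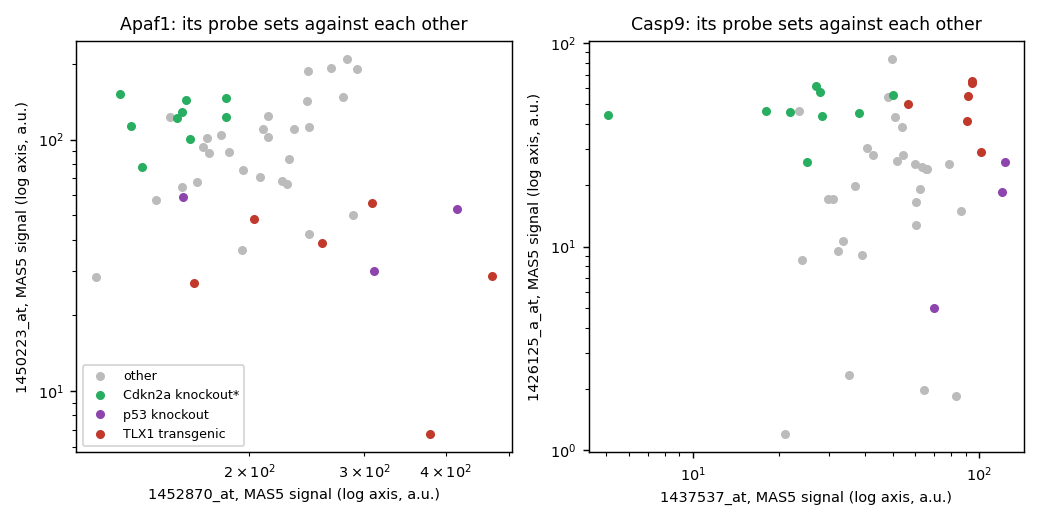
The 2 probe sets of *Apaf1* (left) and of *Casp9* (right) against each other, in signal on log axes in arbitrary units, with 1 point per tumour; green points are *Cdkn2a* knockout, purple p53 knockout, red TLX1 transgenic and grey all other tumours, and the asterisk marks retroviral insertional mutagenesis. No common rising order is seen in either panel, with a Pearson r of log2 values of -0.22 for *Apaf1* and -0.02 for *Casp9*.

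*Birc3*, which encodes cIAP2, was high in TLX1 tumours. On 1421392_a_at they had 318 to 715 units with a median of 533, against 75.5 to 825 and a median of 265 in the others. The ranges overlapped, and the TLX1 difference was 0.91 ± 0.26, ranked 498 of 8814. It was 1.14 with TLX1 tumours 1, 3 and 4 and 0.69 with tumours 2, 5 and 6. On the dim probe set 1425223_at, below the array median in every array, the difference was 1.01, and 1 TLX1 tumour lay above every other tumour. The log2 values of both probe sets had a Pearson r of 0.50 over 47 tumours.

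LMO1 transgenic tumours had the highest mean of *Birc3* on 1421392_a_at, at 436, 471 and 825 units. Their mean was 1.20 ± 0.26 higher than the other TLX1 negative backgrounds (limma adjusted p 0.0103; 1.17% of genes were called higher). Without LMO1 tumour 2 the difference was 0.92 (limma adjusted p 0.197). Tal1-LMO2 double transgenic tumours, at 75.5, 129 and 206, were lower by 0.96 ± 0.26 (limma adjusted p 0.0206; 5.28% of genes were called lower). That call was lost without tumour 2 (-0.63, adjusted p 0.293) or tumour 3 (-0.97, adjusted p 0.112).

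p53 knockout tumours had 261, 348 and 700 units of *Birc3*, and their mean was 0.71 ± 0.26 higher (limma adjusted p 0.0435). The highest was tumour 2, the one low in T cell markers, and without it the difference was 0.32 ± 0.29 (limma adjusted p 0.550). The call was also lost without p53 knockout tumour 1 (adjusted p 0.0583). Leaving out Tal1 tumour 1, olig1-LMO1 tumour 1, E2A knockout tumour 1, rag E2A knockout tumour 1 or Pokemon tumour 2 gave an adjusted p of 0.05003 to 0.0533. Over the 41 TLX1 negative tumours the log2 value of *Birc3* had a Pearson r of 0.65 with the summed endothelial markers and 0.48 with the summed myeloid markers, and of 0.42 and 0.38 with dendritic cell and B cell markers. Such correlations were not limited to *Birc3*. Over the marker lists, the Pearson r of *Gsdme* ran from -0.49 (endothelial) to 0.23 (T cell). That of *Birc2* ran from -0.11 (erythroid) to 0.47 (dendritic cell). Each point takes both values from 1 array, and the part of other cell types in these genes was not tested.

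*Birc2*, which encodes cIAP1, was above the array median in all 47 arrays on 1418854_at. TLX1 tumours had 248 to 674 units with a median of 440, against 195 to 574 and a median of 270 in the others. The TLX1 difference was 0.64 ± 0.15, and 2 TLX1 tumours lay above every other tumour. It was 0.32 with tumours 1, 3 and 4, 0.96 with tumours 2, 5 and 6, and 0.09 ± 0.22 after adjustment for the 3'/5' ratio.

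Among TLX1 negative backgrounds *Birc2* was higher in LMO1 transgenic tumours, at 361, 426 and 574, by 0.66 ± 0.16 (limma adjusted p 0.0217). Without LMO1 tumour 2 the adjusted p was 0.295, and without tumour 3 it was 0.106. *Cdkn2a* knockout tumours, from 195 to 275 with a median of 234, were lower by 0.34 ± 0.10 (limma adjusted p 0.00964). *Birc2* and *Birc3* were thus both called higher in the LMO1 transgenic tumours, where 1.17% of all tested genes were called higher. None of the other 5 genes was called there, and with so small a share nothing is read from that. Over the 41 TLX1 negative tumours, their log2 values had a Pearson r of 0.57 (Spearman 0.52), and *Gsdme* had an r of -0.59 with *Birc2* and -0.55 with *Birc3*. These are descriptions over tumours of 13 backgrounds, and each array contributes to both genes.

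**Figure D4:**
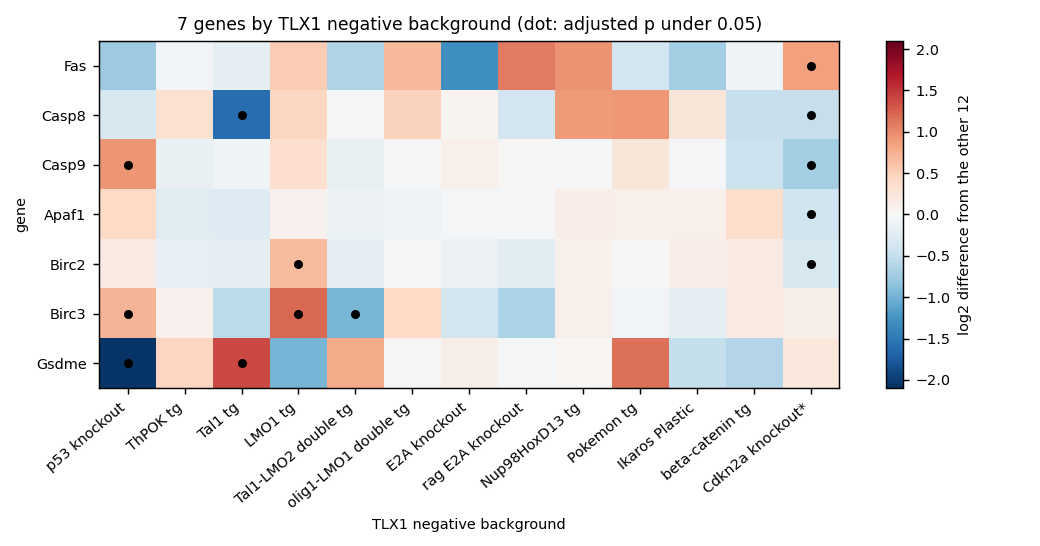
Each TLX1 negative background against the mean of the other 12 (log2 difference) for the 7 genes; red is higher, blue is lower, a dot marks a limma adjusted p under 0.05, and the asterisk marks retroviral insertional mutagenesis. Of the 91 cells, 13 are called, 5 of them in the *Cdkn2a* knockout background, where 16.1% of all tested genes were called higher and 13.8% lower.

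In all, 13 of 91 pairs of gene and background were called, 6 higher and 7 lower, in 5 backgrounds. In the directions of these calls, the share of all tested genes called ran from 1.17% (LMO1 transgenic, higher) to 16.1% (*Cdkn2a* knockout, higher). The share over all pairs was not computed, so the count of pairs is a description. By the F test 6 of the 7 genes passed, against 61.6% of all genes. *Cdkn2a* knockout tumours had 5 of the 13, with *Fas* higher and *Casp8*, *Casp9*, *Apaf1* and *Birc2* lower. In that background 16.1% of all genes were called higher and 13.8% lower. Other settings ended some calls. After adjustment for the 3'/5' ratio the adjusted p was 0.153 for *Casp9* and 0.391 for *Birc3* in p53 knockout tumours. It was 0.226 for *Apaf1* and 0.0994 for *Birc2* in *Cdkn2a* knockout tumours, and 0.160 for the F test of *Casp9*. After quantile normalization it was 0.0633 for *Birc3* in p53 knockout, 0.0638 for *Gsdme* in Tal1 transgenic and 0.101 for *Birc3* in Tal1-LMO2 double transgenic tumours. With array weights it was 0.114 for *Casp9* and 0.454 for *Birc3* in p53 knockout and 0.0763 for *Gsdme* in Tal1 transgenic tumours. For *Birc2* in LMO1 transgenic tumours it was 0.0590 with all 47 tumours in the fit and 0.0586 with the replicate number as a block. Without the tumours labelled Nup98HoxD13 and olig1-LMO1 it was 0.0948 for *Casp8* in *Cdkn2a* knockout tumours.

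Seen across the 7 genes, the median TLX1 difference was 0.64, the value of *Birc2*, and it was 0.07 for all tested genes. *Apaf1* entered it with 0.46 from 1452870_at, not with -1.21 from 1450223_at. Of all tested genes, 12.6% were called higher and 8.86% lower by TLX1 status. Nothing about the 7 genes is read from the median or from these shares, since the genes were chosen on this difference. *Fas* and *Birc3* lay above the negative mean in the tumours of low and of high 3'/5' ratio, and *Gsdme* below it. *Birc2*, *Apaf1* and *Casp8* were nearer to 0 in tumours 1, 3 and 4 than in tumours 2, 5 and 6.

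**Figure D5:**
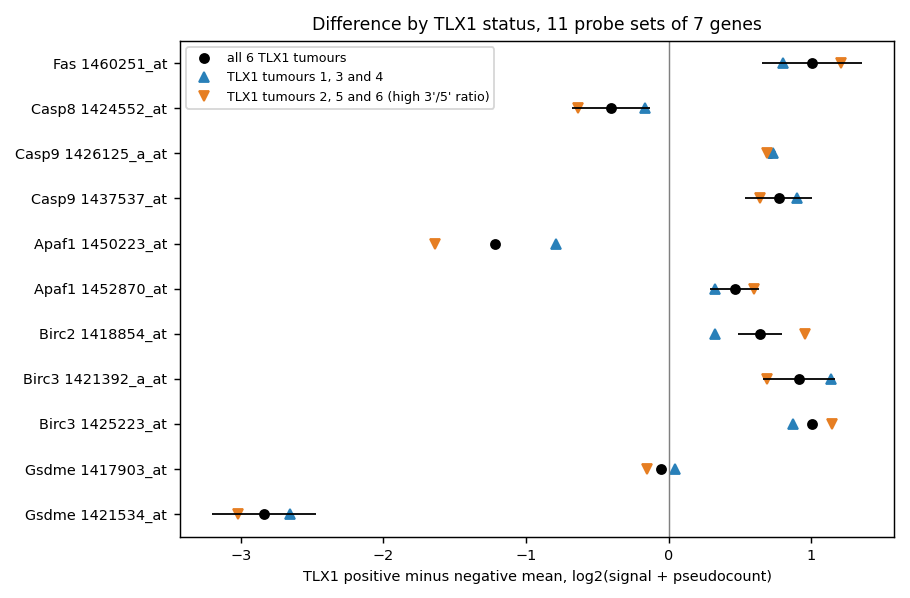
Difference between the mean of TLX1 positive and TLX1 negative tumours in log2(signal + 15.9) for the 11 probe sets; black points use all 6 TLX1 tumours, with SE bars where the probe set stood for its gene, and triangles use 3 of them. *Gsdme* 1421534_at lies at -2.83 and *Gsdme* 1417903_at at -0.05.

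A wider list held 90 genes of the same routes, of which 73 had a probe set of their own and 64 were tested. Of the 57 tested genes outside the 7, 28 (49.1%) passed the F test among TLX1 negative backgrounds, against 61.6% of all tested genes. By list, without the 7 genes, this was 5 of 7 death ligands and receptors, 4 of 8 receptor adaptors and inhibitors and 2 of 5 caspases. It was 2 of 5 apoptosome and mitochondrial factors, 2 of 6 inhibitor of apoptosis proteins and 3 of 8 caspase substrates. It was 3 of 5 gasdermins and pyroptosis genes and 8 of 14 NF-kB genes.

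p53 knockout tumours had 8 of these 57 genes higher and 8 lower, against 14.5% and 11.3% of all tested genes, so the counts are near the background. *Tnfrsf21*, a death receptor, was higher by 1.94 ± 0.33 (limma adjusted p 0.000135), and *Faf1*, a Fas-associated factor, by 0.92 ± 0.12. *Ltbr*, the lymphotoxin beta receptor, was higher by 1.13 ± 0.29. *Cycs*, which encodes cytochrome c, was lower by 0.69 ± 0.13. *Birc6*, a large inhibitor of apoptosis protein, was lower by 0.97 ± 0.17, *Casp2* by 0.84 ± 0.22, *Casp8ap2* by 1.04 ± 0.28 and *Aifm1* by 0.53 ± 0.15. Without tumour 2, 3 of the 57 were higher and 2 lower, against 6.29% and 4.005% of all tested genes. *Tnfrsf21* (1.42 ± 0.37), *Faf1* (0.76 ± 0.14), *Cycs* (-0.50 ± 0.14) and *Birc6* (-0.93 ± 0.20) were still called.

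Other genes of these lists were called in other backgrounds. *Cdkn2a* knockout tumours had 8 of the 57 higher, among them *Ninj1* (0.74 ± 0.10) and *Birc6* (0.65 ± 0.11), and 4 lower, among them *Tradd* (-0.42 ± 0.09). In that background 16.1% of all tested genes were called higher and 13.8% lower, so neither count exceeds the background share. *Cycs* was higher by 0.88 ± 0.15 in Tal1 transgenic tumours (limma adjusted p 0.000463), where *Xiap*, an inhibitor of caspases, was lower by 0.69 ± 0.19. *Ninj1*, needed for plasma membrane rupture, was lower by 1.02 ± 0.16 in Tal1-LMO2 double transgenic tumours and higher by 0.74 ± 0.16 in Ikaros Plastic tumours. *Tnfrsf21* was lower by 1.42 ± 0.40 in E2A knockout tumours. *Tradd*, an adaptor of death receptors, was lower by 0.59 ± 0.14 in Ikaros Plastic tumours. *Cd83* was higher by 1.86 ± 0.40 and *Nlrp3*, an inflammasome sensor, by 1.07 ± 0.33 in beta-catenin transgenic tumours. *Faf1* was lower by 0.72 ± 0.12 there. *Parp1*, a caspase substrate, was lower by 0.60 ± 0.16 and *Birc6* higher by 0.76 ± 0.17 in ThPOK transgenic tumours, and *Birc6* was lower by 0.82 ± 0.20 in Pokemon transgenic tumours. Of all tested genes, 16.3% were called higher and 8.33% lower in Ikaros Plastic, 12.2% and 7.05% in beta-catenin transgenic, and 7.5% and 5.74% in ThPOK transgenic tumours. In E2A knockout and Pokemon transgenic tumours 3.15% and 0.749% were called lower. In Tal1 transgenic tumours 3.34% were called higher and 2.31% lower, and in Tal1-LMO2 double transgenic tumours 5.28% were called lower. LMO1 transgenic tumours had 0 of the 57 genes called in either direction, where 1.17% of all tested genes were called higher. With so small a share, nothing is read from the count of 0. *Lmnb1*, which encodes a nuclear lamin cut by caspases, was higher by 0.73 ± 0.19 in *Cdkn2a* knockout tumours (limma adjusted p 0.00343). *Tnfaip3* passed the F test, but no background was called for it.

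By TLX1 status, 5 of the 57 genes were called higher and 2 lower, with a median difference of 0.13. Of all tested genes, 12.6% were called higher and 8.86% lower, with a median of 0.07. *Tnfrsf21* (1.13 ± 0.38), *Naip2* (1.11 ± 0.27) and *Tradd* (0.84 ± 0.15) were among the higher ones, and *Casp8ap2* (-0.65 ± 0.23) and *Aifm1* (-0.40 ± 0.14) were the lower ones. *Naip5* (0.84 ± 0.46), *Birc6* (-0.57 ± 0.23) and *Casp2* (-0.53 ± 0.20) were not called. With TLX1 tumours 1, 3 and 4 alone, 0 were called higher and 0 lower. The share of all tested genes called in that smaller fit was not computed, so nothing about these genes is read from it.

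The genes most like each member were found by Pearson correlation over the 41 TLX1 negative tumours, given as a description. *Sephs2* (0.85), *Ptp4a2* (0.74) and *Zfp207* (0.73) came first for *Gsdme*. *Phf20l1* (0.80), *Nup155* (0.77) and *Olig3* (0.74) came first for *Fas*. *Mfge8* (0.77), *Pecam1* (0.69) and *Csf2rb* (0.69) came first for *Birc3*, and *Pecam1* is a marker of endothelium. For *Birc2* they were *Fam13b* (0.70), *Sgsh* (0.69) and *Gtpbp2* (0.67), for *Casp9* *Gtpbp2* (0.73), *Cdc42ep4* (0.72) and *Arfgap1* (0.72). For *Casp8* they were *Stat3* (0.69), *Wipf1* (0.68) and *Tax1bp1* (0.68), and for *Apaf1* *Rnf14* (0.66), *Coro1b* (0.65) and *Trip12* (0.65). All tumours share the platform, and a background contributes its shift to both genes.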

How the data were processed

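Per the labels' protocols, Trizol RNA of 47 tumours was hybridised as biotinylated cRNA. The authors deposited signal intensities on a linear scale, 1 per probe set and array, which the submitters' processing notes credit to MAS5. Its version and the genome build are not given in the sources. The 2% trimmed mean was 250.1 on every array, so arrays were scaled before deposit, and array medians ran from 49.5 to 106. The number of arrays limits the precision.

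The analysis used log2(signal + 15.9), with 15.9 the 25th percentile over the deposited signals. Probe sets with 1 platform symbol (20380; 691 have several, 1555 none, 64 are controls) were used, and a gene was read by its probe set of highest mean log2 value among those above the array median in at least 2 arrays. limma 3.58.1 (R 4.3.3) fitted an intensity trend, p-values were adjusted over 8814 genes by Benjamini-Hochberg, and genes were called at an adjusted p under 0.05. The 41 TLX1 negative tumours gave an F test over 13 backgrounds and each background against the unweighted mean of the other 12. All backgrounds share 1 spread, those of 2 tumours included. Differences by TLX1 status used all 47. On simulated data with log2 changes of 2 in 200 genes, the p53 knockout comparison recovered 95.5% and the F test 80%. Of their calls, 4.5% and 6.43% were false. The simulated noise was independent between genes. Smaller changes and changes in groups of 2 tumours were not simulated, so these shares do not describe most calls reported here.

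The members and gene lists were chosen with earlier results of these data known. Named genes were all members, the 2 listed genes of lowest F p per list, the 3 with the largest TLX1 difference in each direction, the 3 most correlated with each member, and *Lmo1*. Alternatives were the added value, quantile normalization, the filter, the choice of probe set, no trend, array weights, the 3'/5' ratio, a replicate block and left-out tumours. The p53 gene is not analysed here.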

Additional observations from a re-analysis of the deposited data

Results flagged for a closer look

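Of 22 tests of the highest or lowest tumour in groups of 6 and 9, 3 found a tumour far from the others, and chance gives about 1 in 20. *Casp8* had 787 units in TLX1 tumour 3, against 352 to 464 in the other TLX1 tumours. *Casp9* on 1437537_at had 56.5 units in TLX1 tumour 6, against 90.6 to 101 in the others. *Casp9* on 1426125_a_at had 25.9 units in *Cdkn2a* knockout tumour 6, against 43.8 to 61.6 in the others.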

How the results depend on the processing

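Over 13 alternatives, 4 to 7 members passed the F test, and *Fas*, *Casp8*, *Birc3* and *Gsdme* passed in each. The share of all tested genes that passed ran from 50.6% with the replicate block to 78.6% with array weights, so passing was common. *Gsdme* in p53 knockout tumours, read by 1421534_at, was called in all 13 (-2.17 to -1.50) and in all 41 fits that left out 1 tumour (-2.30 to -1.87). On its other probe set, 1417903_at, it was not called (0.093, limma adjusted p 0.891). The replicate numbers did not pair the tumours: deviations of tumours with the same number had a mean r of -0.007, against 0.003 for different numbers. With that number as a block, 7 pairs were called, 3 of them lower, and no *Cdkn2a* knockout call was left, since among TLX1 negative tumours numbers 4 to 9 occur only there. With the probe set of largest interquartile range, 10 pairs were called higher. The share of all pairs called was not computed for the block or for this choice of probe set, so both counts are descriptions. With this choice *Apaf1* in *Cdkn2a* knockout tumours was 0.45 and its TLX1 difference was -1.21. The likeness of *Casp8* to *Stat3* was -0.13 and of *Apaf1* to *Rnf14* -0.028. Adjusted for the 3'/5' ratio, TLX1 differences were 0.10 for *Casp8*, 0.38 for *Casp9* and 0.091 for *Birc2*. *Casp9* was 0.43 with the median signal added.

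The listed genes called by TLX1 status, 5 higher and 2 lower, came to 10 and 4 with array weights and 10 and 5 against the unweighted mean of backgrounds. Without p53 knockout tumour 2 they came to 8 and 5. They came to 0 and 0 with that adjustment and without TLX1 tumours 2, 5 and 6, and to 3 higher without tumours 1, 3 and 4. The lower ones came to 1 with quantile normalization, 9 with the probe set of largest interquartile range and 1 with the block. Leaving out 1 TLX1 tumour gave 3 to 7 higher and 0 to 2 lower. For these settings the share of all tested genes called by TLX1 status was not computed, so nothing is read from the counts. Leaving out 1 TLX1 negative tumour gave 5 to 7 members by the F test, which 56.8% to 66.6% of all tested genes passed. It gave 11 to 16 called pairs, 4 to 8 higher and 6 to 8 lower. The share of all pairs of tested gene and background called was not computed there, so nothing is read from the counts of pairs. The 2 alternatives chosen after seeing the data leave out p53 knockout tumour 2, or the tumours labelled Nup98HoxD13 and olig1-LMO1. Causes were not tested. Signals near the array median, as for *Casp9* and *Gsdme* in TLX1 tumours, limit the size of a difference.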

Other observations

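The genes most like *Gsdme* also depended on the probe set. *Ptp4a2* differed by -3.21 between TLX1 positive and negative tumours on 1435129_at, but by 0.91 on 1420613_at and 0.14 on 1460707_at. *Zfp207* differed by -2.63 on 1438714_at and by 1.06 on 1455092_at. *Sephs2* differed by -1.94 on 1435602_at, -0.58 on 1418325_at and -0.31 on 1449040_a_at. In p53 knockout tumours against the other TLX1 negative tumours, the probe sets 1435129_at, 1438714_at and 1435602_at differed by -2.71, -2.64 and -1.86. The values are log2 differences, chosen after they were seen, and no test was made.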
